A study of Mus musculus with 6 samples.

Results

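The scaffold genes of the postsynaptic density were followed in the basolateral amygdala of male mice under Chronic Restrained Stress (CRS), in which an animal is repeatedly held immobile, and of not-stressed controls (Ctrl). The genes were taken by symbol: Dlg1, Dlg2, Dlg3, Dlg4, Shank1, Shank2, Shank3, Homer1 and Dlgap1, which make 9 of the 26264 gene symbols counted in each library. All 9 were found, and all 9 passed the filter on low counts. Each group held 3 biological replicates, each sequenced as 1 library of ribosomal RNA-depleted total RNA from dissected tissue. The libraries were sequenced in 1 pool over several lanes, and the sources used here give no strain, age or length of the stress. Whether each replicate is 1 animal is not stated.

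The postsynaptic density is the protein mesh under the membrane of an excitatory synapse. In its upper layer the Dlg proteins, or membrane-associated guanylate kinases, hold glutamate receptors and adhesion proteins through their PDZ domains. Dlgap1 (GKAP or SAPAP1) links them to the Shank proteins, and Homer1 joins Shank to the metabotropic glutamate receptors and to the inositol trisphosphate receptor. The density is built mostly in the spines of excitatory neurons, which form the bulk of the projection cells of the basolateral amygdala.

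The libraries held 9859449 to 10179081 counts in genes under CRS and 9870139 to 10233706 in Ctrl. Reads that overlapped no counted gene made up 55.0 to 57.4% under CRS and 53.0 to 55.1% in Ctrl. The single scaffold genes had between 887 and 6597 counts in a library, so counting alone gave an error of at most 3.36%. Levels are given as CPM, which is a gene's counts scaled by the library's total count in genes after TMM adjustment of that total. The 9 excitatory neuron markers that define the tissue's main cell type were all detected, with summed levels of 2612 to 3012 CPM under CRS and 2116 to 3044 CPM in Ctrl. Libraries differed in levels of regional markers. The 13 striatal and central amygdala markers were far lowest in CRS 1, with a summed level of 274 CPM against 755 to 1467 CPM in the other 5 libraries. Choroid plexus markers summed to 142 to 8841 CPM under CRS and to 226 to 6490 CPM in Ctrl. In such bulk tissue, fewer cells of a type and less RNA per cell cannot be told apart.

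Only 7 of the 9 genes had an annotated start in the RefSeq promoter table at hand, which is of build GRCm38.p6 and not of the submitters' build mm39. The 250 bases before a listed start of Homer1 and of Dlg1 are shown because the levels of these genes followed each other most closely in the libraries among those with a listed start, and because Homer1 is known for induction by neuronal activity. Capitals mark the cAMP response element core TGACGT and the E-box CACGTG, searched on both strands. No 2 matches overlap in the windows shown.
Homer1, chr13:93303507-93303756, plus strand: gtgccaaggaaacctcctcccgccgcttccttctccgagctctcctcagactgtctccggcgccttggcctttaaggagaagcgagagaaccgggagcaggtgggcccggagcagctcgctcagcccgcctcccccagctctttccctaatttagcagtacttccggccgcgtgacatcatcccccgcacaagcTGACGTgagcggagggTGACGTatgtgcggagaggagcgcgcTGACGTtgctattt
Dlg1, chr16:31663685-31663934, plus strand: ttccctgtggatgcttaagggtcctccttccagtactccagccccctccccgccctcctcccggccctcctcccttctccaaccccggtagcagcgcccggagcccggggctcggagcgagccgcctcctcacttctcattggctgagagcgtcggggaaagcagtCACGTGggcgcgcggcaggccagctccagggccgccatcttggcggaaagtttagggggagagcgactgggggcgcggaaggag
The Homer1 window shown held TGACGT 3 times. Among 32851 such windows of all listed genes, 6.47% held TGACGT at least once and 0.152% at least 3 times. The window before the other listed start of Homer1 held neither motif. The Dlg1 window shown held no TGACGT and 1 CACGTG, which 6.02% of windows hold. Of the other Dlg1 windows, that at chr16:31663193-31663442 also held 1 CACGTG, and the rest held neither motif. These percentages are per window, and each gene shown had more than 1. Among the 17 windows of scaffold genes, 1 held TGACGT and 3 held CACGTG. These motifs were chosen after the sequences had been read, and a match describes letters, not a bound site.

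Stress was set against control in a fit across all 14739 genes with enough counts. Under CRS, none of the 9 scaffold genes passed the threshold of an adjusted p of 0.05, and in each of them the libraries of the groups overlapped. Fitted log2 fold changes (CRS minus Ctrl) were above 0 in 5 genes and below 0 in 4, with a median of 0.09 against -0.0044 over all tested genes, where 48.4% lay above 0. The members' median was -0.035 with the oligodendrocyte marker level as a covariate, the setting that moved it most. The largest were those of Dlgap1, at 0.17 ± 0.08 (SE), and Shank2, at 0.17 ± 0.14. By edgeR's quasi-likelihood test 0 of 9 members had an adjusted p under 0.05 (0% of all tested genes). DESeq2 called 2 of all genes, neither of them a member. At an unadjusted p under 0.05 there were also 0 of 9 members, against 3.37% of all tested genes (1.33% higher and 2.04% lower under CRS). The groups were separate in 0 of 9 members, against 8.28% of all tested genes (3.8% with CRS above and 4.48% with CRS below).

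**Figure D1:**
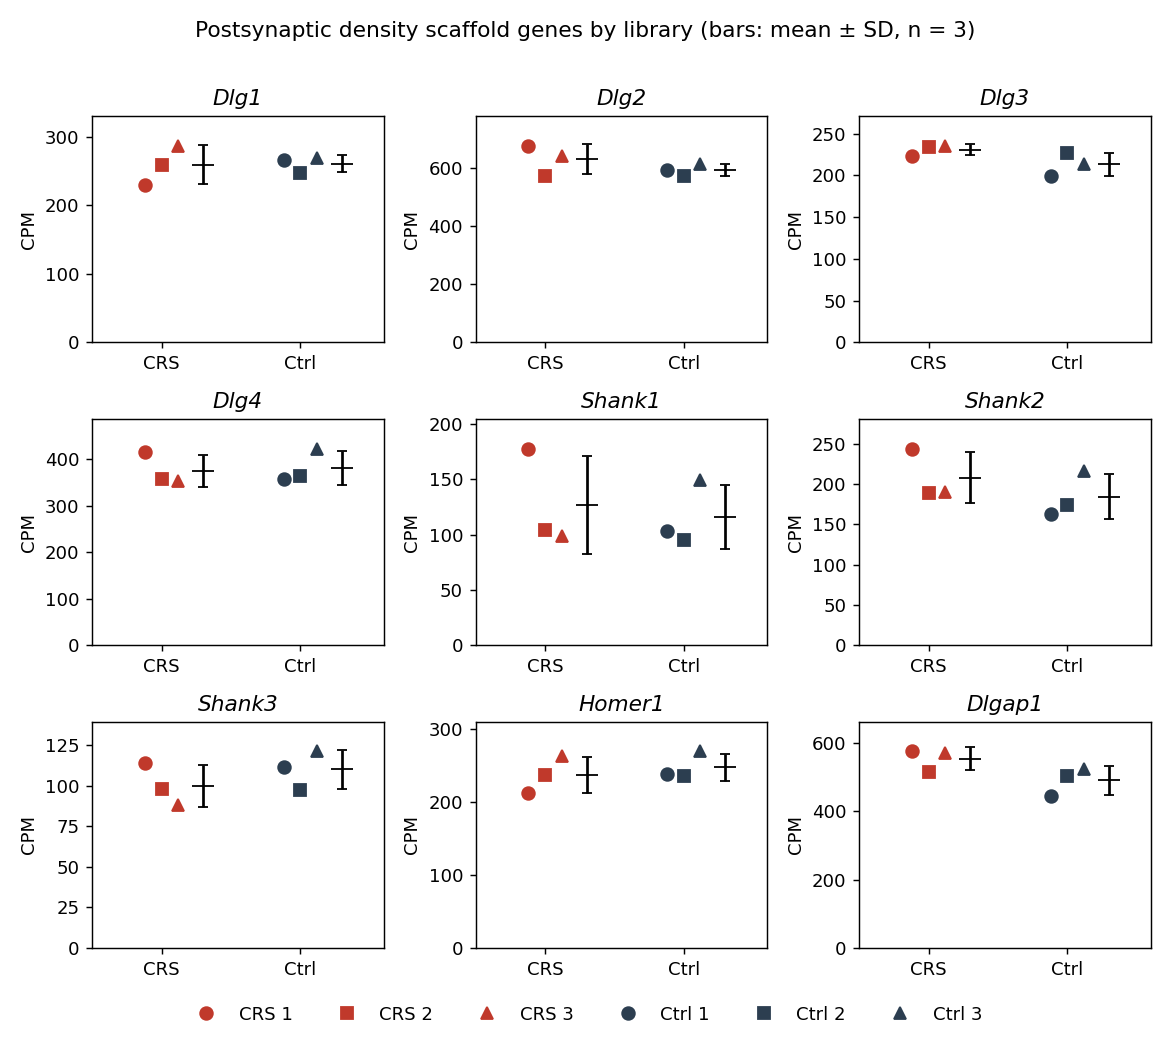
Level of each scaffold gene in CPM (vertical axis, from 0) in each library, with CRS left and Ctrl right; the black bar is the mean ± SD of 3 libraries. The groups overlap in all 9 panels, and CRS 1 and Ctrl 3 stand above the other 4 libraries for Dlg4, Shank1 and Shank2.

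The Dlg genes encode the scaffolds that hold receptors at the membrane. Dlg4, which encodes PSD-95, the most studied of them, was at 416, 357 and 353 CPM in CRS 1 to 3, against 358, 364 and 424 CPM in Ctrl 1 to 3. CRS 1 and Ctrl 3 were high and the other 4 libraries lay close together, so the groups covered nearly the same range. The log2 fold change of Dlg4 was -0.03 ± 0.09, with a 95% interval that as a fold runs from 0.845 to 1.14 (adjusted p = 0.997, edgeR).

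Dlg2, which encodes PSD-93, a close relative of PSD-95, had 677, 574 and 643 CPM under CRS, against 593, 573 and 614 CPM in Ctrl. Its level was highest in CRS 1 and CRS 3, while CRS 2 lay among the controls. Dlg2 had a log2 fold change of 0.09 ± 0.08, with a fold interval from 0.940 to 1.20 (adjusted p = 0.997, edgeR). It was 0.04 without CRS 1, 0.16 without CRS 2 and 0.01 with the striatal marker level as a covariate.

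Dlg3, which encodes SAP102, a scaffold that is prominent at young synapses and is encoded on the X chromosome, had 223, 234 and 236 CPM under CRS, against 199, 227 and 214 CPM in Ctrl. Ctrl 2 lay within the CRS values, and the other 2 controls below them. The difference, at 0.11 ± 0.07 on the log2 scale, was between 0.971- and 1.21-fold in the 95% interval (adjusted p = 0.997, edgeR). Leaving out any library, and every other setting tried, kept Dlg3 between 0.07 and 0.17.

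Dlg1 encodes SAP97, a scaffold found also before the synapse and in other cells, which binds the AMPA receptor subunit GluA1. It was at 230, 259 and 287 CPM under CRS, against 265, 246 and 269 CPM in Ctrl. CRS held both the lowest and the highest library, with the controls between them. The log2 fold change was -0.0097 ± 0.09 (fold interval 0.862 to 1.14, adjusted p = 0.998, edgeR). Without CRS 1 it was 0.07, and it was above 0 in 8 of the 19 alternative settings tried.

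Dlgap1, the link between the Dlg and Shank layers, had 574, 514 and 570 CPM under CRS, against 443, 503 and 523 CPM in Ctrl. CRS 1 and CRS 3 stood above all controls, and CRS 2 lay between Ctrl 2 and Ctrl 3. Its means were 553 ± 33.6 CPM under CRS and 490 ± 41.6 CPM in Ctrl (SD, n = 3 each). This gene had the smallest unadjusted p of the 9, 0.0694, with a fold interval from 0.988 to 1.29 (adjusted p = 0.997, edgeR). The value was 0.23 without CRS 2 (unadjusted p = 0.0391, adjusted p = 0.762, edgeR) and 0.22 without Ctrl 3 (unadjusted p = 0.0387, adjusted p = 0.855, edgeR). Of all tested genes, 961 of 14944 and 777 of 14968 had an unadjusted p under 0.05 in these fits. Dlgap1 was at 0.15 without CRS 1, 0.15 without CRS 3, 0.11 without Ctrl 1 and 0.20 without Ctrl 2. With the oligodendrocyte marker level as a covariate it was at 0.04 ± 0.07.

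**Figure D2:**
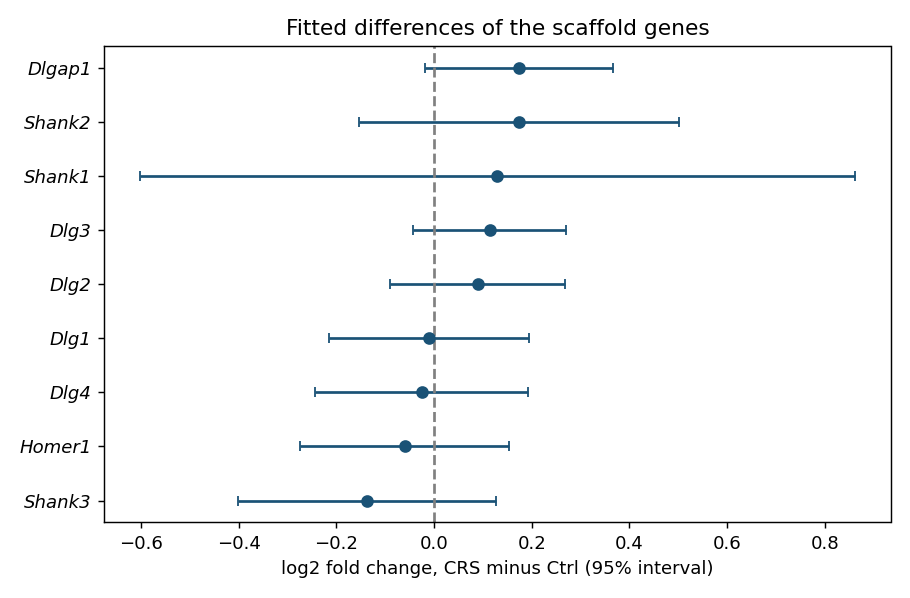
Fitted log2 fold change (CRS minus Ctrl, horizontal axis) of each scaffold gene, with its 95% interval. All 9 intervals include 0, and that of Shank1, from -0.60 to 0.86, is the widest.

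The Shank proteins are the deep-layer scaffolds that tie Dlgap1 to Homer and to the actin skeleton, and they varied more between libraries than the other members. Shank1, which promotes large, mature spines, was at 178, 104 and 98.6 CPM under CRS, against 103, 95.5 and 149 CPM in Ctrl. A single library in each group was high, CRS 1 and Ctrl 3, and the other 4 lay between 95.5 and 104 CPM. The coefficient of variation of Shank1 over the 6 libraries was 28.0%, against 6.17 to 15.04% for the other 8 members and a median of 6.46% in tested genes with a mean of at least 50 CPM. Its log2 fold change was 0.13 ± 0.29 (adjusted p = 0.997, edgeR), 0.35 without Ctrl 3 and -0.19 without CRS 1, so that 1 library set its direction. With both CRS 1 and Ctrl 3 left out, a choice made after seeing the data, the Shank1 value was 0.03 ± 0.08.

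Shank2 had 244, 189 and 191 CPM under CRS, against 163, 174 and 216 CPM in Ctrl. CRS 1 and Ctrl 3 were again the highest, and CRS 2 and CRS 3 stood between Ctrl 2 and Ctrl 3. The log2 fold change of Shank2 was 0.17 ± 0.14 (fold interval 0.898 to 1.42, adjusted p = 0.997, edgeR). It was 0.04 without CRS 1 and 0.30 without Ctrl 3 (unadjusted p = 0.0488, adjusted p = 0.855, edgeR). Without both, a choice made after seeing the data, the Shank2 value was 0.17 ± 0.07 (unadjusted p = 0.0401, adjusted p = 0.984, edgeR). Of all tested genes, 777 of 14968 had an unadjusted p under 0.05 without Ctrl 3, and 670 of 14861 without both.

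Shank3, whose loss in people is a known cause of autism with intellectual disability, was at 114, 97.9 and 88.1 CPM under CRS, against 112, 96.97 and 121 CPM in Ctrl. Ctrl 3 was the highest and CRS 3 the lowest library, with CRS 1 above Ctrl 1 and CRS 2 just above Ctrl 2. The value, -0.14 ± 0.11 on the log2 scale (fold interval 0.757 to 1.09, adjusted p = 0.997, edgeR), was below 0 in each of the 19 alternative settings, between -0.27 and -0.05. It reached -0.24 without CRS 1 and -0.06 without Ctrl 3.

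Homer1 is a gene with long forms that cross-link Shank and receptors and a short, activity-induced form, Homer1a, that breaks these links. A count per gene cannot tell these forms apart. Homer1 was at 213, 237 and 263 CPM under CRS, against 238, 235 and 269 CPM in Ctrl. CRS 1 was the lowest library for Homer1, while Ctrl 3 and CRS 3 were the highest. Its log2 fold change was -0.06 ± 0.09 (fold interval 0.827 to 1.11, adjusted p = 0.997, edgeR), and 0.01 without CRS 1.

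Within each family, the share of counts held by each gene is a quantity that does not use the library size. Of the counts of Shank1 to Shank3 together, Shank3 held 21.2, 25.01 and 23.3% under CRS, against 29.6, 26.4 and 24.9% in Ctrl. Shank2 held 45.6, 48.3 and 50.5% under CRS, against 43.1, 47.5 and 44.4% in Ctrl. For Shank3 the groups overlapped between CRS 2 and Ctrl 3, and for Shank2 Ctrl 2 lay above CRS 1. The share of Shank3 differed by -3.76 percentage points and that of Shank2 by 3.12 (two-sided exact permutation p = 0.2 each, 0.7 after adjustment over 7 shares; 3 against 3 cannot go below 0.1).

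For Shank1 the share was 28.7 ± 3.94% under CRS and 28.0 ± 2.42% in Ctrl (SD, n = 3 each; exact permutation p = 0.8). In the other family, Dlg4 held 25.1 ± 1.82% of the counts of Dlg1 to Dlg4 under CRS and 26.3 ± 1.36% in Ctrl, and Dlg2 held 42.2 ± 1.76% under CRS and 41.0 ± 0.807% in Ctrl (SD, n = 3 each; exact permutation p = 0.4 each). Dlg1 held 17.3 ± 2.15% under CRS, with CRS 1 the lowest library at 14.9%, and 18.0 ± 0.687% in Ctrl (SD, n = 3 each). Dlg1 and Dlg3 differed by -0.657 and 0.720 percentage points, with an exact permutation p of 0.9 and 0.5. A share of counts also carries the length of each transcript, so the order of genes within a library is not an order of molecules.

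**Figure D3:**
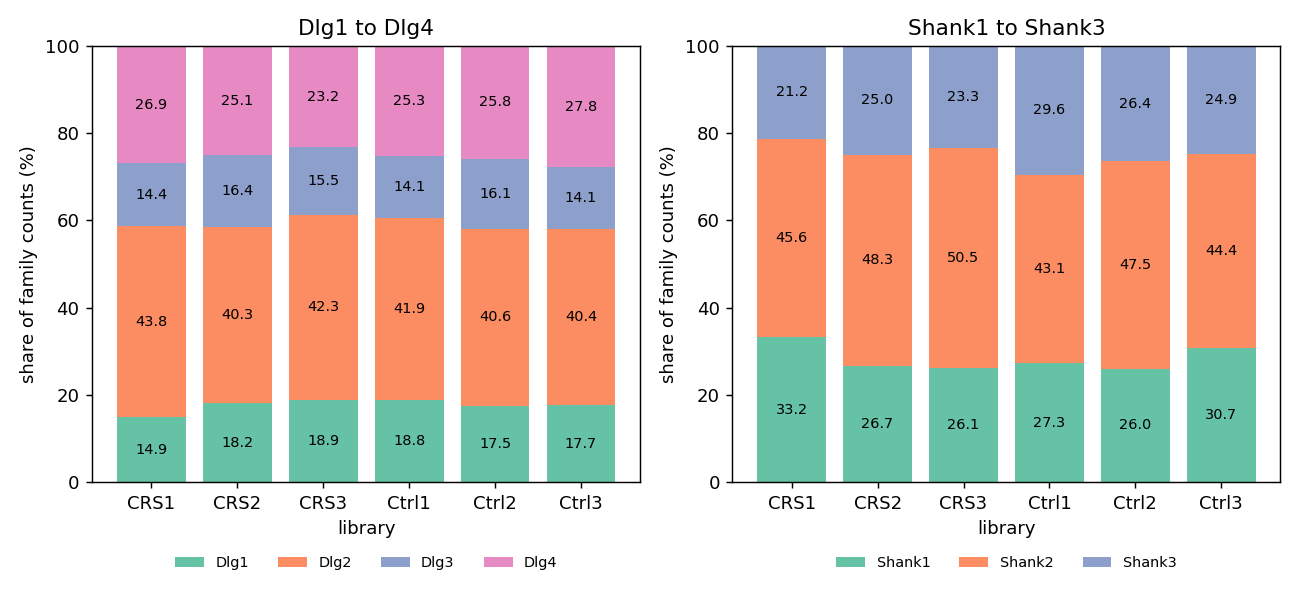
Share of family counts in percent (vertical axis) held by each Dlg gene (left) and each Shank gene (right) in every library, CRS libraries left of Ctrl. The Shank3 share is 21.2 to 25.01% in CRS and 24.9 to 29.6% in Ctrl, and the Dlg1 share is 14.9 to 18.9% in CRS and 17.5 to 18.8% in Ctrl.

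Levels of different genes were compared per kilobase, with the merged exon length of GENCODE M21, build GRCm38. In CPM per kilobase of exon, Dlg3 averaged 39.5 ± 1.16 under CRS and 36.5 ± 2.37 in Ctrl, and Dlg2 averaged 38.8 ± 3.24 under CRS and 36.4 ± 1.28 in Ctrl (SD, n = 3 each). These led the order, and their ranges over libraries overlapped. Dlgap1, at 24.8 to 32.1 CPM per kilobase over all libraries, and Dlg4, at 26.6 to 32.0, came next, below the whole range of Dlg2. Dlg1 (21.4 to 26.7), Homer1 (17.8 to 22.5) and Shank2 (15.1 to 22.7) each overlapped the gene before. Shank1 (9.08 to 16.9) and Shank3 (9.59 to 13.2) were lowest in CPM per kilobase, and Shank3 lay wholly below Shank2. Per kilobase of the longest coding sequence the order changed: Homer1 moved to first place and Dlg3 to the sixth, while the 3 Shank genes stayed the lowest.

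The members did not vary as a block. CRS 1 was the highest library for 4 members (Dlg2, Shank1, Shank2 and Dlgap1) and the lowest for 2 (Dlg1 and Homer1). Ctrl 3 was the highest for 3 members and Ctrl 1 the lowest for 3. As a measure of likeness over the 6 libraries, Pearson's r of log2 CPM was 0.94 between Dlg4 and Shank1, 0.91 between Shank1 and Shank2 and 0.88 between Dlg1 and Homer1. The lowest values were -0.73 between Dlg3 and Shank3 and -0.52 between Dlg1 and Shank1. Of the other members, Shank3 was most like Dlg4 (0.79), Dlgap1 and Dlg2 most like Shank2 (0.77 and 0.76) and Dlg3 most like Dlgap1 (0.73). The libraries are the only points behind these values, and they share depth and dissection, so they are given as descriptions. Of 11911 other genes at a mean of at least 5 CPM, the 5 whose log2 level was closest to the mean profile of the 9 members were Lama4, Srpk1, Rab11fip4, Vip and Arfgef3, with r between 0.993 and 0.998 over 6 libraries. Their own fitted log2 fold changes ran from 0.05 (Rab11fip4) to 0.16 (Vip). These genes were picked for the highest r over the same 6 libraries, so both their r and their fold changes follow from that choice.

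CRS 1 and Ctrl 3 were the highest libraries for the Shank genes and Dlg4, and their levels were set beside markers of cell types. The mean log2 level of the 9 excitatory neuron markers, relative to the Ctrl mean, was 0.55, -0.01 and -0.07 in CRS 1 to 3, against -0.28, -0.11 and 0.39 in Ctrl 1 to 3. CRS 1 and Ctrl 3 were the high libraries of this list too, and 8 of its 9 genes had a log2 fold change above 0, beside 48.4% of all tested genes. Shank3 did not follow the list in Ctrl 1, the list's lowest library, where Shank3 was at 112 CPM against 114 CPM in CRS 1. One of the excitatory neuron markers, Camk2a, is itself a kinase of the density. With this level as a covariate, Shank1 was at -0.08 ± 0.09, Shank2 at 0.08 ± 0.05 and Dlg4 at -0.09 ± 0.05 on the log2 scale. The SE of Shank1 was then 0.09 in place of 0.29. It was 0.08 with CRS 1 and Ctrl 3 left out and no covariate. Shank3 was at -0.20 ± 0.09 in the fit with the excitatory neuron level, with an unadjusted p of 0.0445 and an adjusted p of 0.9995 (edgeR).

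Of the 13 markers of striatum and central amygdala, 13 had a log2 fold change below 0, with list levels of -2.79, -0.48 and -0.51 under CRS against 0.51, -0.38 and -0.13 in Ctrl, and Isl1 at 0 in CRS 1. With their level as a covariate, Shank1 was at -0.34 ± 0.24, Shank3 at -0.27 ± 0.13 and Dlgap1 at 0.10 ± 0.10. Oligodendrocyte markers had log2 fold changes below 0 in 10 of 10 genes. They summed to 1767 to 2505 CPM under CRS, against 3518, 2448 and 2246 CPM in Ctrl 1 to 3, so only Ctrl 1 lay above the CRS range. Astrocyte markers were below 0 in 7 of 7, with sums of 1006 to 1095 CPM under CRS and 1102 to 1171 CPM in Ctrl. Interneuron markers summed to 691 to 817 CPM under CRS, against 1104, 856 and 807 CPM in Ctrl 1 to 3, with 5 of 7 below 0. Of all tested genes, 48.4% had a log2 fold change above 0. Pan-neuronal markers summed to 8791 to 10048 CPM under CRS and 8562 to 9415 CPM in Ctrl, with 7 of 10 above 0. The fits given here are descriptions, and the part of these cell types in the values of the scaffold genes was not tested.

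**Figure D4:**
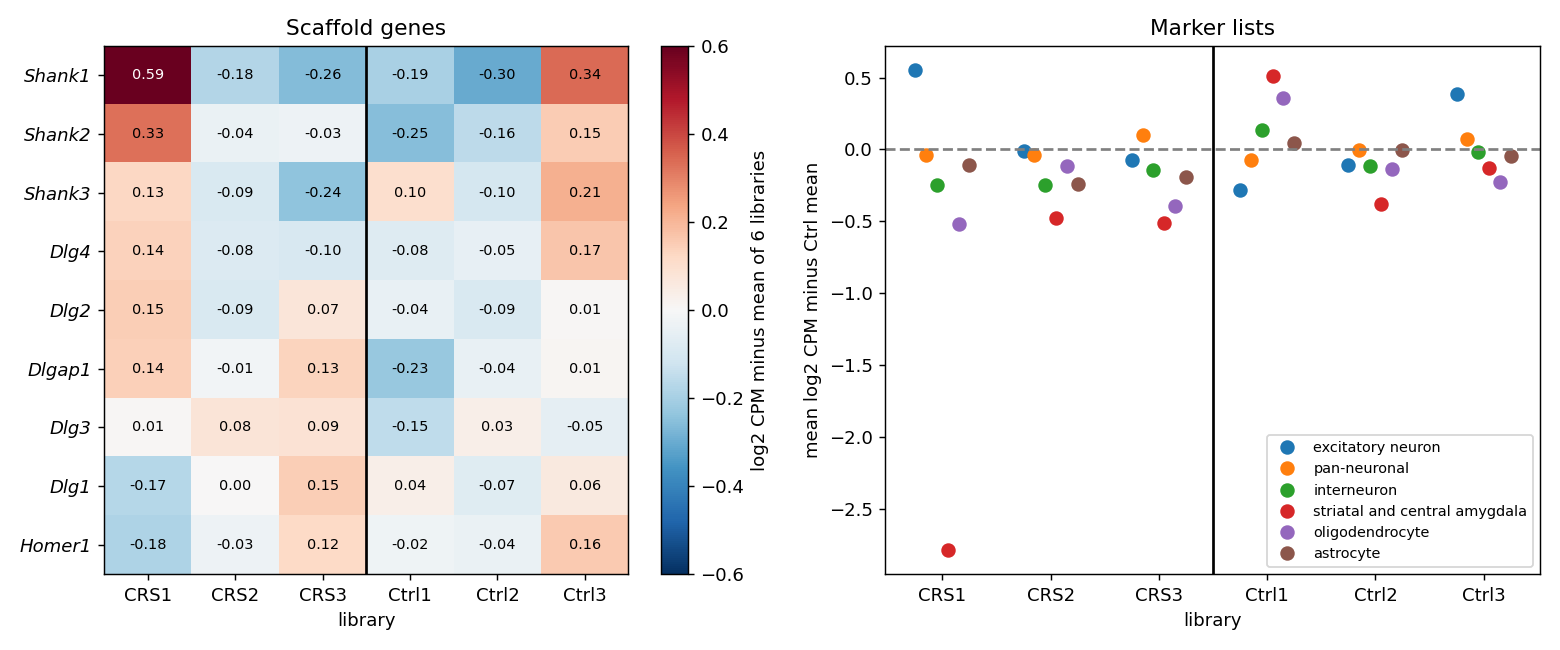
Left, log2 CPM of each scaffold gene in each library minus its mean over 6 libraries (colour scale and printed value). Right, mean log2 CPM of marker lists minus the Ctrl mean; CRS 1 and Ctrl 3 are high for Shank1 and for excitatory neuron markers, and CRS 1 is lowest for striatal markers at -2.79.

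**Figure D5:**
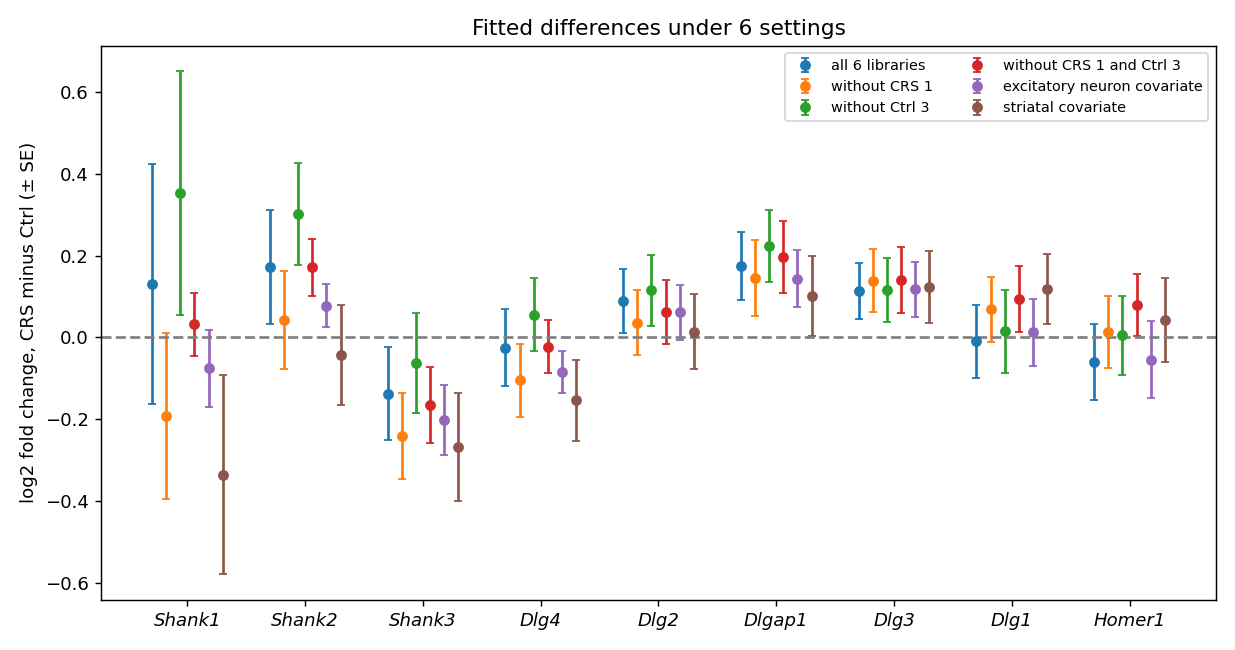
Log2 fold change (CRS minus Ctrl, vertical axis) ± SE of each scaffold gene with all libraries, with the libraries CRS 1 or Ctrl 3 or both left out, and with the excitatory neuron or the striatal marker level as a covariate. Shank1 ranges from -0.34 to 0.35 over these 6 settings, and Dlg3 from 0.11 to 0.14.

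Other scaffolds of the postsynaptic density had no gene past the threshold over all genes (0 of 20). At an unadjusted p under 0.05 there was 1 lower gene, Grip2, a PDZ protein that binds AMPA receptors, at 15.7, 19.4 and 18.9 CPM under CRS, against 23.1, 20.5 and 23.4 CPM in Ctrl. That is 1 of 20 genes, beside 2.04% lower among all tested genes. Its groups did not overlap, as for 4.48% of all tested genes with CRS below (log2 fold change -0.31 ± 0.11, adjusted p = 0.997, edgeR). Dlgap2, a relative of Dlgap1, was next, at 0.21 ± 0.12. The list had a median log2 fold change of -0.0094, with 9 above 0 and 11 below 0.

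Of 15 signalling proteins of the density, 12 had a log2 fold change above 0 (median 0.09), beside 48.4% of all tested genes. CRS 1 was the highest library for 9 of these 15 genes. Relative to the Ctrl mean, their mean log2 level was 0.13, 0.04 and 0.04 in CRS 1 to 3. In Ctrl 1 to 3 it was -0.08, -0.05 and 0.13. In this list 0 of 15 passed the threshold over all genes. At an unadjusted p under 0.05, Arhgef7, the exchange factor beta-PIX that acts on Rac1, was higher, at 142, 134 and 137 CPM under CRS, against 118, 123 and 127 CPM in Ctrl (log2 fold change 0.16 ± 0.06, adjusted p = 0.997, edgeR). Frmpd4, or Preso, which binds PSD-95 and Homer, was lower, at 168 ± 16.5 CPM under CRS and 192 ± 8.18 CPM in Ctrl (SD, n = 3 each; log2 fold change -0.19 ± 0.08, adjusted p = 0.997, edgeR). The groups were separate for Arhgef7 and for 1 other gene of the list, Dbn1, with CRS above in both, against 3.8% of all tested genes. Dbn1, which encodes the actin-binding drebrin, was named after its values were seen. The 2 of 15 genes at an unadjusted p under 0.05 stand beside 3.37% of all tested genes.

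Receptors and adhesion proteins that the scaffolds bind showed 13 of 15 log2 fold changes above 0, beside 48.4% of all tested genes, with a median of 0.07. In this list 0 of 15 passed either threshold, beside 3.37% of all tested genes at an unadjusted p under 0.05. The smallest p-values belonged to Lrrtm1, a synaptic adhesion protein, at 0.34 ± 0.20, and Cacng3, an AMPA receptor auxiliary subunit, at 0.17 ± 0.10. CRS 1 was the highest library for 9 of these 15 genes. Among 7 genes of inhibitory postsynapses, 4 were above 0 and 0 passed either threshold, with a median of 0.0011. Gphn, the scaffold gephyrin of inhibitory synapses, stood at 97.9 ± 9.40 CPM under CRS and 105 ± 8.61 CPM in Ctrl (log2 fold change -0.11 ± 0.09), and Insyn2a, which encodes a partner of gephyrin, at -0.34 ± 0.22.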

How the data were processed

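Total RNA of the basolateral amygdala was sequenced in 6 libraries after ribosomal RNA depletion with a stranded kit, per the labels. What the authors deposited were unnormalized read counts for each symbol, in a separate file for every library. HTSeq 0.13.5 and STAR 2.7.7a, besides edgeR 3.42.4, FastQC 0.12.1 and the build mm39, appear in the submitters' processing notes, with no roles. Neither annotation nor strand setting is given in the sources used here, and genes overlapping Dlg2, Shank1 and Shank2 that the files also list could share reads with them. Reads given to no gene, of which the report gives those overlapping none as a percent (6.97 to 8.16% more aligned to several places and 0.162 to 0.194% were ambiguous), stayed out of library sizes. Rows for low quality equalled those for multiple alignment, and were counted once.

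Tests ran in DESeq2 1.42.0, limma 3.58.1 and edgeR 4.0.16 under R 4.3.3. The function filterByExpr (minimum count 10, minimum total 15) kept 14739 genes. The test was edgeR's robust quasi-likelihood F test with TMM factors of 0.983 to 1.02, for CRS minus Ctrl, adjusted by Benjamini-Hochberg over all tested genes at 0.05. SEs are the absolute log2 fold change over the root of F. CPM used TMM-scaled sizes; levels on a log2 scale used a prior count of 2. The procedure was tested on simulated counts, at an adjusted p under 0.05. It called 37.8% of genes changed 1.5-fold, 72.7% of those changed 2-fold and 88% of those changed 3-fold. No library pair agreed within sampling noise (lowest chi-square per gene 2.96).

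The members and lists were chosen with earlier results of these data known. Named genes were the 9 members, the genes of each functional list with an unadjusted p under 0.05 (the 2 with the smallest p where fewer than 2 had that), for each member the most alike other member, and the 5 most alike in profile. P-values of edgeR set the group difference against the spread between these samples, moderated over all tested genes. Those of the shares come from reassigning the group labels. Marker lists are described by levels and counts; those for microglia (2 of 5 log2 fold changes above 0), endothelium (0 of 5) and choroid plexus (0 of 7) were also computed. Alternatives covered normalization, filter, test, block, covariates and left-out libraries.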

Additional observations from a re-analysis of the deposited data

How the results depend on the processing

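No scaffold gene passed the adjusted threshold in any of the 19 alternatives tried, of which leaving out Ctrl 3 and CRS 1 together was chosen after seeing the data. Over all genes, 0 passed with all libraries by edgeR's quasi-likelihood test (496 at an unadjusted p under 0.05) and 0 by limma-voom; 2 passed by DESeq2, Hpca and Ndst4, and 1 without Ctrl 3, Rn18s. These 3 genes were named after their values were seen. With each library left out in turn, 0 to 1 genes passed over all genes, the median log2 fold change of the 9 members ran from 0.01 to 0.12 and the count above 0 from 5 to 8, the 8 being without Ctrl 3. The median was -0.035 with the oligodendrocyte covariate, -0.016 with the choroid plexus covariate and -0.015 without Ctrl 1 and CRS 1, with 4 members above 0 in each; the cause was not tested. The direction of 5 members turned, with the cause not tested. With the striatal covariate Dlg1 was at 0.12, Shank1 at -0.34, Shank2 at -0.042 and Homer1 at 0.042. With the oligodendrocyte covariate Dlg1 was at 0.027, Shank1 at -0.19 and Shank2 at -0.035. Shank1 was at -0.043 with the choroid plexus covariate and at -0.076 with the excitatory neuron covariate, where Dlg1 was at 0.012. Without Ctrl 1 and CRS 1, Dlg1 was at 0.082, Shank1 at -0.27 and Shank2 at -0.039. Without Ctrl 3 and CRS 1, Dlg1 was at 0.094 and Homer1 at 0.079. With each library left out in turn, Dlg1 ran from -0.091 (without CRS 3) to 0.069 (without CRS 1), Dlg4 from -0.10 (without CRS 1) to 0.056 (without Ctrl 3), Shank1 from -0.19 (without CRS 1) to 0.35 (without Ctrl 3) and Homer1 from -0.14 (without CRS 3) to 0.013 (without CRS 1). Dlg2, Dlg3, Shank3 and Dlgap1 kept their direction in all 19.

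Same-numbered libraries deviated together for 2 of 3 numbers only (r = -0.32, 0.53 and 0.28 for 1 to 3). By chi-square per gene, CRS 2 was closest to Ctrl 2 (2.96) and CRS 3 to Ctrl 3 (5.50), but CRS 1 was also closest to Ctrl 3 (8.22). With 3 libraries per group these values cannot settle the pairing, and the numbers were not taken as pairs. With the replicate block 0 genes passed (410 at an unadjusted p under 0.05), and the median of the 9 members was 0.09.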
